A study of Mus musculus with 8 samples.

Results

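The acute-phase response is the change in liver secretion that follows inflammation or injury, and 10 mouse genes for its plasma proteins are described here, given by name and all found among the 52551 rows of the count files. They comprise the serum amyloid A family (Saa1, Saa2, Saa3 and Saa4), the orosomucoids or alpha-1-acid glycoproteins (Orm1, Orm2 and Orm3), the lipocalin Lcn2, the pentraxin Apcs and haptoglobin, Hp. Their transcripts were counted in the liver of male C57BL/6 mice aged 6 weeks. Every animal carried PiZ, a transgene encoding human alpha-1 antitrypsin in its Z form, a secreted protease inhibitor that misfolds in the endoplasmic reticulum of hepatocytes. The PiZ group had that transgene alone, and the PiZ/Chop-/- group also lacked Chop, the gene Ddit3, which encodes a transcription factor of endoplasmic reticulum stress. Each group had 4 libraries, and wild-type livers, which the design text also names, were not analysed here. The promoter of the transgene and the deleted part of Chop are not stated in the labels, and neither is whether each library came from a separate mouse, so p-values here speak only of library-to-library spread, which may be technical.

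In hepatocytes, interleukin-6 acts through its receptor, the shared chain gp130, Janus kinases and STAT3, and interleukin-1 acts through NF-kB, to raise the transcription of these genes. Factors of the C/EBP family, with which CHOP can pair, bind many of their promoters. SAA1 and SAA2 ride on high-density lipoprotein and rise steeply in inflammation, SAA4 is made constitutively, and SAA3 is made largely outside hepatocytes, by macrophages and fat among others. Orosomucoids bind lipophilic drugs and modulate immunity, LCN2 binds bacterial siderophores and so withholds iron, serum amyloid P (Apcs) is the main acute-phase pentraxin of the mouse, and haptoglobin captures free hemoglobin.

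The 250 bases upstream of the start site are shown for 4 genes: Lcn2 and Apcs, whose transcripts differed between the groups, and Saa1 and Saa2, a near-identical pair whose proportions did not overlap between the groups. The sequences are those of RefSeq on GRCm38.p6, whose table held 8 of the 10 genes (not Orm1 and Hp). Capitals mark matches to TTGCNNAA, a short form of the C/EBP consensus, searched on both strands, to TGCAAT, the core of a CHOP-C/EBP element, also searched on both strands, or to TTCNNNGAA, a STAT motif that reads alike on both strands. The intervals are chr7:46742981-46743230 (minus strand) for Saa1, chr7:46751583-46751832 (plus strand) for Saa2, chr2:32387740-32387989 (minus strand) for Lcn2 and chr1:172895055-172895304 (minus strand) for Apcs. The start sites of RefSeq used for Saa2 and Lcn2 lie inside the gene bounds of GENCODE given for them here.
Saa1: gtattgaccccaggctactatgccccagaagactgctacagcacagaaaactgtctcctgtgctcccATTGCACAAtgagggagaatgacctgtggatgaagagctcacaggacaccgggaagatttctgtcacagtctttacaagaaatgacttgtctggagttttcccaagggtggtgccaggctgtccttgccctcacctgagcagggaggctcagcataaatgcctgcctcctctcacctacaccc
Saa2: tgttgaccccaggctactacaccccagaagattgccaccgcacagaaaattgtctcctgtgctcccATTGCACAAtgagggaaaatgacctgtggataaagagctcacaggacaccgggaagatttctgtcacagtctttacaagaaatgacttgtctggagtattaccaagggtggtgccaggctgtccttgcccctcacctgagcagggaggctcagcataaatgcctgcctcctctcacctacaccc
Lcn2: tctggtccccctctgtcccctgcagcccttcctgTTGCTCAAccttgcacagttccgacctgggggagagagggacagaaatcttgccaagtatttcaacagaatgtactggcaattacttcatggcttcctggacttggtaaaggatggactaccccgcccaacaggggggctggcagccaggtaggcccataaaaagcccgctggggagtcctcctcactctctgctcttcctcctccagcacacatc
Apcs: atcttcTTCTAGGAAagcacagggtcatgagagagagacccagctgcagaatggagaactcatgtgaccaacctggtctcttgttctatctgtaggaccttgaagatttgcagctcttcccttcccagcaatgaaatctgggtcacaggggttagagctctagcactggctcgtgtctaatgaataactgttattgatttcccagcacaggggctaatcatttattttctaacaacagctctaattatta

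The Saa1 and Saa2 promoters were 94.8% identical over 251 aligned columns, and each held the run ATTGCACAA, in which the C/EBP motif and TGCAAT (read on the minus strand) overlap. TTGCNNAA was found in 7 of the 8 promoters, against 9.56% of the 32851 promoters in the table. The 7 are not independent of each other. Saa1 and Saa2 are near-identical, and Orm2 and Orm3 are neighbouring paralogs with the match at -120 and -121. Its bases were TTGCTCAA in Lcn2, TTATGCAA (minus strand) in Saa3, TTGCCAAA and TTGAGCAA (minus strand) in Saa4, TTGCGCAA in Orm2 and TTGCACAA in Orm3. TGCAAT was found in 2 of the 8, Saa1 and Saa2, against 7.32% of all promoters. Apcs held no TTGCNNAA and was the 1 promoter of the 8 with a STAT match, TTCTAGGAA, against 7.02% of all. The NF-kB consensus, searched as GGGRNWYYCC (R is A or G, W is A or T, Y is C or T), was found in 0 of the 8 windows and in 3.90% of all. At so low a share over all promoters, 0 of 8 does not show that NF-kB sites are lacking. A match describes letters in these windows only.

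Ddit3 followed the labels, with 180 to 595 counts in the PiZ libraries and 3 to 9 in the PiZ/Chop-/- libraries. Total counts ran from 1650260 to 3064385 per library, and the count filter left 8669 genes for the edgeR test. Of these, 89 were called at a Benjamini-Hochberg adjusted p below 0.05, which is 1.03% of the genes tested. Genes lower in PiZ/Chop-/- made up 0.692% and genes higher 0.335%. At an unadjusted p below 0.05 stood 1139 genes (13.1%), the share against which such counts in the gene lists are to be read. All 10 acute-phase genes passed the count filter. Levels are CPM, counts scaled to the TMM-adjusted library size, as mean ± SD with n = 4 per group, and fold changes are PiZ/Chop-/- over PiZ. The kit counts 3' ends. Levels are compared within a gene, and counts of different genes are set together only in the shares of Saa2 and Orm3 among their paralogs.

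The transcripts of serum amyloid P and lipocalin-2 were lower in livers without CHOP, and the other 8 genes did not pass the test. No protein was measured here. Thus 2 of the 10 were called, both lower, beside the 0.692% of all tested genes called in that direction. The 10 genes were chosen with earlier results of these data known, so such shares are a description and not a test. In the same 2 genes the groups did not overlap, beside 7.88% of all tested genes. Of the 10 fold changes 9 were below 0, beside 4350 of all 8669 genes. These directions are not independent, since the genes varied together over the libraries. Pearson r of log2 CPM between pairs of the 10 ran from -0.45 (Saa4 and Apcs) to 0.90 (Saa1 and Orm3). The median of the 10 fold changes was -0.69 on the log2 scale, against -0.0016 over all 8669 genes. That median rested in part on PiZ library 1, without which it was -0.27. It was -0.46 without PiZ/Chop-/- library 2. In bulk tissue, fewer cells of a type and less RNA per cell cannot be told apart.

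**Figure D1:**
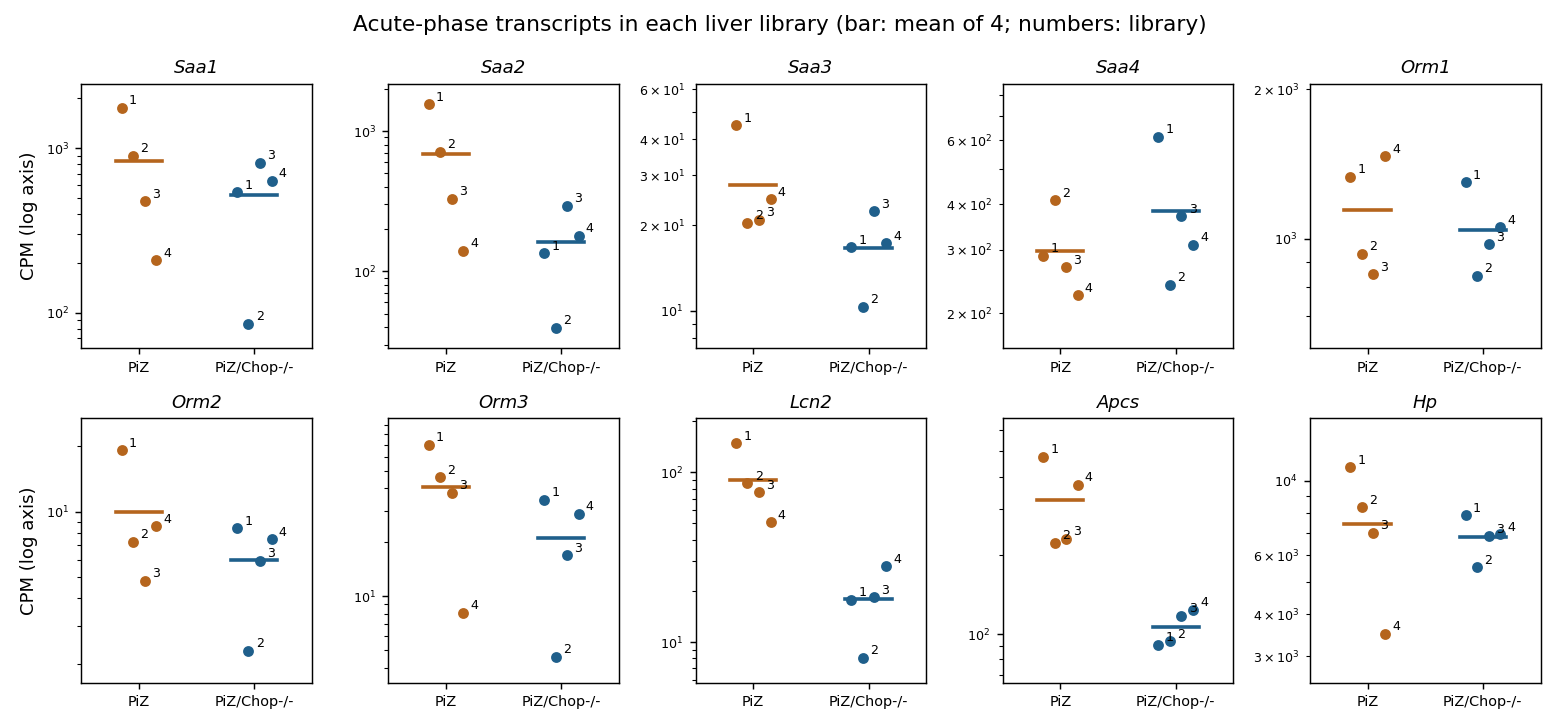
CPM (log axis, scaled separately for each gene) of the 10 acute-phase transcripts in 4 PiZ and 4 PiZ/Chop-/- liver libraries. Points are libraries with their numbers and bars are group means; Lcn2 and Apcs are the 2 genes in which every PiZ library lies above every PiZ/Chop-/- library.

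Apcs (ENSMUSG00000026542; chromosome 1, 172893961 to 172895041, minus strand, mm10) encodes serum amyloid P, a calcium-dependent pentraxin that binds amyloid fibrils, chromatin and microbial surfaces. It stood at 477, 223, 231 and 372 CPM in PiZ libraries 1 to 4 and at 91.1, 93.7, 118 and 124 CPM in PiZ/Chop-/- libraries 1 to 4. The lowest PiZ library thus lay well above the highest PiZ/Chop-/- library, and the libraries without CHOP were close together. The group levels were 326 ± 122 and 107 ± 16.6 CPM (SD, n = 4 per group). The log2 fold change fitted by edgeR was -1.61, a 3.05-fold fall, with an SE of 0.25 (edgeR adjusted p = 0.00327, exact permutation p = 0.0286, two-sided, the smallest that 4 against 4 can give). The call held in each fit with 1 library left out, with log2 fold changes of -1.75 to -1.37 and a highest adjusted p of 0.0174 (edgeR).

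The transcript of C-reactive protein, the other short pentraxin, did not pass the test. Crp, a weak acute-phase reactant in mice, averaged 316 ± 57.8 CPM with CHOP and 297 ± 35.1 CPM without it (SD, n = 4 per group), with overlapping groups. Its log2 fold change was -0.088 with an SE of 0.19 (edgeR adjusted p = 0.886), and the difference between the Crp and Apcs changes was not tested. Its sign turned without PiZ library 4 (0.059). Ptx3, the long pentraxin of phagocytes and endothelium, had 1 count in all 8 libraries together.

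Lcn2 (ENSMUSG00000026822; chromosome 2, 32384633 to 32388252, minus strand) is induced in hepatocytes by interleukin-6 and is also a granule protein of neutrophils. It stood at 148, 86.0, 76.2 and 50.8 CPM in PiZ libraries 1 to 4 and at 17.7, 8.05, 18.4 and 27.9 CPM in PiZ/Chop-/- libraries 1 to 4. The groups were separate although each spread widely. Their levels were 90.3 ± 41.4 and 18.0 ± 8.13 CPM (SD, n = 4 per group). The log2 fold change fitted by edgeR was -2.30, a 4.94-fold fall, with an SE of 0.38 (edgeR adjusted p = 0.0113, exact permutation p = 0.0286, two-sided). Leaving out PiZ/Chop-/- library 1 (-2.29, edgeR adjusted p = 0.0688) or library 3 (-2.31, edgeR adjusted p = 0.0626) kept the size and ended the call.

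**Figure D2:**
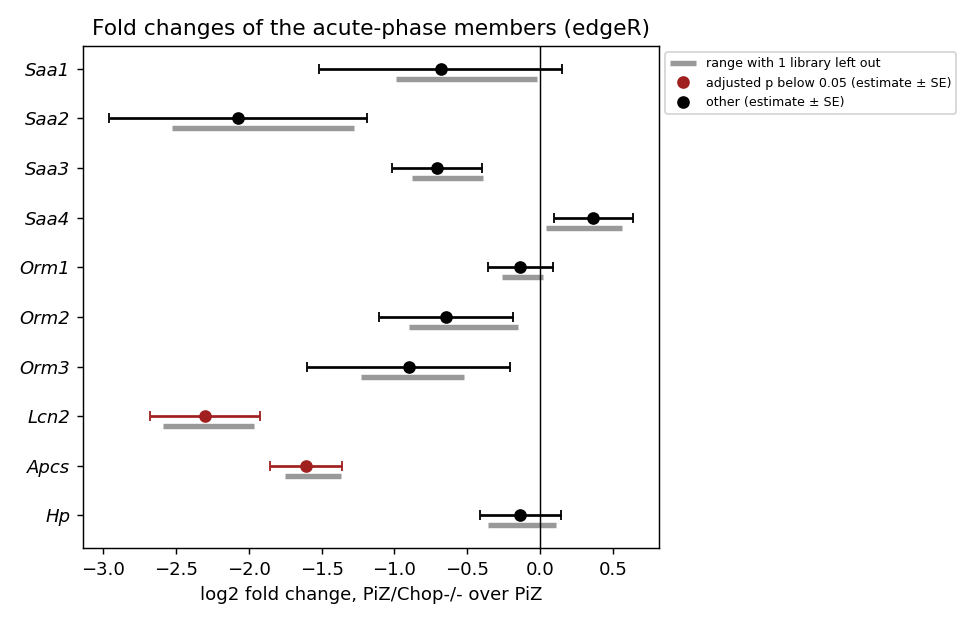
Log2 fold change (PiZ/Chop-/- over PiZ) of each gene with its SE from edgeR, and below it in grey the range of estimates when each of the 8 libraries is left out in turn. Lcn2 at -2.30 and Apcs at -1.61, in red, passed the adjusted p threshold of 0.05; Saa2 at -2.07 had a larger estimate than Apcs and an SE of 0.89.

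Saa1 and Saa2, the acute-phase amyloid A genes, varied widely between libraries of a group, and neither level passed the test. Saa1 (ENSMUSG00000074115; chromosome 7, 46740497 to 46742980, minus strand) stood at 1755, 893, 475 and 209 CPM in PiZ libraries 1 to 4 and at 539, 85.6, 815 and 635 CPM in PiZ/Chop-/- libraries 1 to 4. The highest PiZ library was 8.40 times the lowest, the corresponding ratio without CHOP was 9.51, and the groups overlapped. Its log2 fold change was -0.68 with an SE of 0.84 (edgeR adjusted p = 0.787), and it was -0.020 without PiZ library 1 and -0.32 without PiZ/Chop-/- library 2.

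Saa2 (ENSMUSG00000057465; chromosome 7, 46751790 to 46754313, plus strand), its neighbour, stood at 1556, 709, 328 and 140 CPM in PiZ and at 134, 39.7, 294 and 179 CPM in PiZ/Chop-/- libraries 1 to 4. Only PiZ library 4 fell into the range of the libraries without CHOP. The group levels were 683 ± 628 and 162 ± 106 CPM (SD, n = 4 per group). The log2 fold change of -2.07 (SE 0.89) did not pass (edgeR adjusted p = 0.386, exact permutation p = 0.114, two-sided), and it was -1.28 without PiZ library 1. With the counts of Saa1 and Saa2 summed, a choice made after seeing the data, the log2 fold change was -1.15 with an SE of 0.86 (edgeR adjusted p = 0.625).

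The proportion of the 2 transcripts, chosen after its values were seen, separated the groups where their levels did not. How often the shares of other gene pairs separate the groups was not tested. Saa2 made up 47.0%, 44.2%, 40.8% and 40.1% of the Saa1 and Saa2 counts in PiZ libraries 1 to 4. In PiZ/Chop-/- libraries 1 to 4 it made up 19.9%, 31.7%, 26.5% and 22.0%. No library without CHOP reached the lowest share of the PiZ group. The nearest pair had 95% Wilson intervals of 36.6 to 43.6% (PiZ library 4, 734 counts) and 25.8 to 38.1% (PiZ/Chop-/- library 2, 218 counts), which overlap. These intervals cover counting error only.

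The mean share was 43.0 ± 3.21% in PiZ and 25.0 ± 5.20% in PiZ/Chop-/- (SD, n = 4 per group), a difference of -18.0 percentage points (exact two-sided permutation p = 0.0286, the smallest possible). This share was chosen after its values were seen and was 1 of 2 such shares compared, and with Benjamini-Hochberg adjustment over the 2 exact permutation tests its p was 0.0571. The difference ran from -20.2 to -16.3 points with each library left out. Within PiZ the share followed the summed level of the 2 genes, which was 3310, 1602, 803 and 348 CPM in libraries 1 to 4. Within PiZ/Chop-/- it did not, the summed levels being 673, 125, 1109 and 814 CPM with the highest share in library 2. Across the groups, PiZ library 4 had a share of 40.1% at 348 CPM, whereas PiZ/Chop-/- library 3 had 26.5% at 1109 CPM. The transcripts Saa1-201 and Saa2-201 were 93.9% identical over 609 aligned columns. In the last 400 bases, the end that a 3' kit reads, none of the 326 stretches of 75 bases (the read length) of either transcript occurred exactly in a transcript of another gene. The sources used here do not say how reads with several matches were treated.

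**Figure D3:**
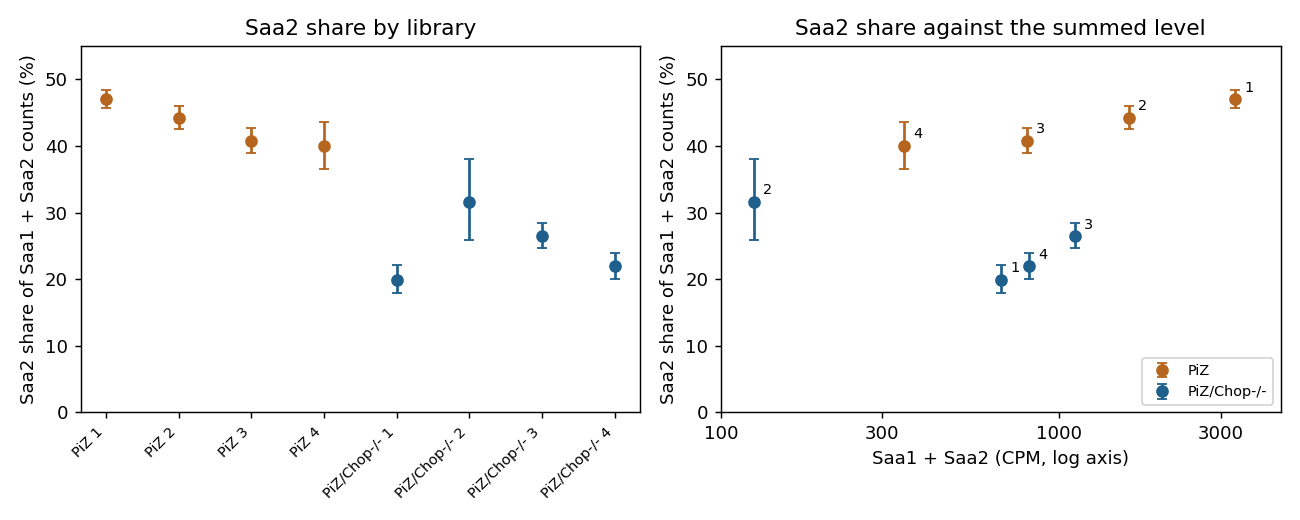
Saa2 share (%) of the Saa1 plus Saa2 counts in each library, with 95% Wilson intervals, by library (left) and against the summed CPM of both genes on a log axis (right, with library numbers). PiZ libraries sit between 40.1 and 47.0% and PiZ/Chop-/- libraries between 19.9 and 31.7%, also where the summed levels are alike.

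Saa3 and Saa4, the remaining genes of the chromosome 7 cluster, did not pass. Saa3 (ENSMUSG00000040026; 46711998 to 46715700, minus strand) stood at 44.9, 20.4, 20.9 and 24.7 CPM in PiZ and at 16.7, 10.3, 22.3 and 17.2 CPM in PiZ/Chop-/- libraries 1 to 4. The libraries overlapped, and PiZ library 1 was well above the rest of its group. The log2 fold change was -0.71 with an SE of 0.31 (edgeR adjusted p = 0.341), and -0.39 without that library. Saa4 (ENSMUSG00000040017; 46727998 to 46732603, minus strand), the constitutive form, was the 1 gene of the 10 with a fold change above 0. It stood at 288, 410, 268 and 224 CPM in PiZ and at 615, 240, 371 and 309 CPM in PiZ/Chop-/- libraries 1 to 4, with overlap. Its log2 fold change was 0.37 with an SE of 0.27 (edgeR adjusted p = 0.605), and 0.043 without PiZ/Chop-/- library 1 and 0.56 without PiZ library 2.

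The orosomucoids lie side by side on the plus strand of chromosome 4, in the order Orm1 (ENSMUSG00000039196; 63344560 to 63348163), Orm3 (ENSMUSG00000028359; 63356162 to 63359511) and Orm2 (ENSMUSG00000061540; 63362449 to 63365878). None of them passed. Orm1 stood at 1335, 934, 848 and 1467 CPM in PiZ and at 1299, 844, 975 and 1056 CPM in PiZ/Chop-/- libraries 1 to 4, a log2 fold change of -0.13 with an SE of 0.22 (edgeR adjusted p = 0.845). The groups lay over one another, and the sign turned without PiZ library 4 (0.023). Orm3 ranged from 8.07 to 70.1 CPM in PiZ and from 4.60 to 34.4 CPM in PiZ/Chop-/-, a log2 fold change of -0.90 with an SE of 0.70 (edgeR adjusted p = 0.637). Both groups spread several-fold and overlapped. Without PiZ library 1 the Orm3 value was -0.52, and without PiZ/Chop-/- library 2 it was -0.57. Orm2, with 129 counts in all 8 libraries, ranged from 4.82 to 19.1 CPM in PiZ and from 2.30 to 8.36 CPM in PiZ/Chop-/-, with a log2 fold change of -0.64 with an SE of 0.46 (edgeR adjusted p = 0.589). This was -0.15 without PiZ library 1 and -0.39 without PiZ/Chop-/- library 2.

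Reads of this family may have been exchanged between genes. Of the 326 stretches of 75 bases in the last 400 bases of Orm1-201, 97 (29.8%) occurred exactly in Orm2 transcripts, while for Orm3-201 a single such stretch (0.307%) was shared. The separate Orm1 and Orm2 counts are therefore uncertain. Orm3 spread the widest of the 3 genes within each group, its highest library standing at 8.69 times the lowest in PiZ and 7.48 times in PiZ/Chop-/-. Its share of all orosomucoid counts was 4.92%, 4.68% and 4.22% in PiZ libraries 1 to 3 and 0.544% in PiZ library 4. It was 2.56%, 0.541%, 1.69% and 2.65% in PiZ/Chop-/- libraries 1 to 4. The groups overlapped, with means of 3.59 ± 2.05% and 1.86 ± 0.979% (SD, n = 4 per group, exact two-sided permutation p = 0.143, also 0.143 after adjustment over the 2 shares).

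Hp (ENSMUSG00000031722; chromosome 8, 109575128 to 109579172, minus strand) stood at 10977, 8347, 7009 and 3492 CPM in PiZ and at 7886, 5520, 6832 and 6934 CPM in PiZ/Chop-/- libraries 1 to 4. PiZ libraries spanned those of the other group on either side. The log2 fold change was -0.13 with an SE of 0.28 (edgeR adjusted p = 0.884, exact permutation p = 0.857, two-sided), and 0.11 without PiZ library 1. Its partners did not pass either. Hemopexin (Hpx), which binds free heme, stood at 3041 ± 233 and 2257 ± 503 CPM (SD, n = 4 per group), which on the log2 scale is -0.43 with an SE of 0.20 (edgeR adjusted p = 0.376). Cd163, the macrophage receptor for haptoglobin-hemoglobin complexes, had 0.60 with an SE of 0.49 (edgeR adjusted p = 0.648), and 0.34 to 0.93 with each library left out.

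The libraries within a group differed across several of the 10 genes at once. PiZ library 1 was the highest of all 8 libraries in 8 genes, all but Saa4 and Orm1. PiZ/Chop-/- library 2 was the lowest of all 8 in 7 genes (Saa1, Saa2, Saa3, Orm1, Orm2, Orm3 and Lcn2). PiZ library 4 was the lowest of its group in 6 genes (Saa1, Saa2, Saa4, Orm3, Lcn2 and Hp) and yet the highest of all in Orm1. Hamp, the iron hormone hepcidin and itself an acute-phase gene, was high in the latter 2 libraries, at 175 CPM in PiZ library 4 and 228 CPM in PiZ/Chop-/- library 2, against 18.4 to 73.6 CPM in the other 6 libraries. Lcn2 and Apcs kept the groups apart in spite of this spread.

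**Figure D4:**
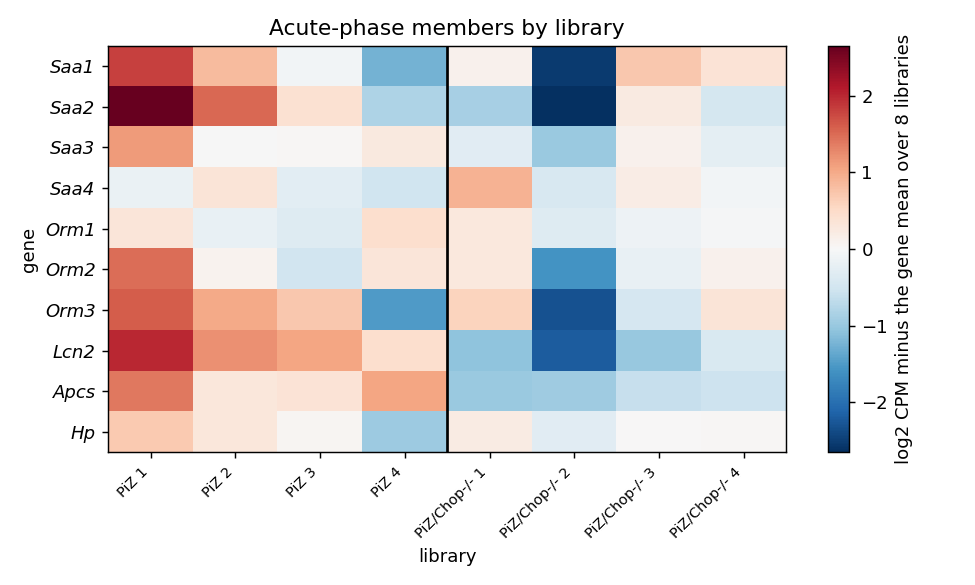
Log2 CPM of each gene (rows) minus its mean over the 8 libraries (columns), with a line between the PiZ and PiZ/Chop-/- groups. PiZ library 1 is highest in 8 of the 10 rows, PiZ/Chop-/- library 2 is lowest in 7, and Lcn2 and Apcs are the rows that divide at the line.

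Transcripts of other proteins induced in the acute phase did not pass the test. Of 24 listed, 21 were tested and 0 were called by edgeR, DESeq2 or limma-voom, with 4 at an unadjusted edgeR p below 0.05 (13.1% over all genes). Of the fold changes 16 were below 0, with a median of -0.16. The median was -0.092, -0.10 and 0.0073 without PiZ library 1, PiZ library 4 or both, -0.26 and -0.25 without PiZ library 2 or 3, and -0.27 with library size as the only scaling. The 3 of lowest p were Cp, ceruloplasmin (0.45, adjusted p = 0.341, edgeR), Fgl1, a hepatokine (-0.67, adjusted p = 0.361, and -0.22 without PiZ library 1), and Serpina3n, a protease inhibitor (-0.48, adjusted p = 0.374). Among 10 negative acute-phase proteins, which fall during inflammation, 0 were called by edgeR, DESeq2 or limma-voom (2 at an unadjusted edgeR p below 0.05, against 13.1% over all genes) and 7 were above 0, with a median of 0.27. Ahsg, fetuin-A, had -0.50 (adjusted p = 0.287), Apoa1 0.49 (0.337) and Apoa2 0.41 (0.389), and the latter pair stood at 0.23 and 0.25 without PiZ libraries 1 and 4. That median was 0.39 without PiZ library 2, 0.14 or 0.18 without PiZ/Chop-/- library 1 or 4, and 0.15 without PiZ libraries 1 and 4.

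In the signalling list, 18 of 25 genes were tested and 1 was called by edgeR, beside 1.03% of all tested genes. At an unadjusted edgeR p below 0.05 stood 2, against 13.1% over all genes. Lifr, the receptor chain for leukemia inhibitory factor, which pairs with gp130, rose from 173 ± 33.8 CPM in PiZ to 431 ± 54.9 CPM in PiZ/Chop-/- (SD, n = 4 per group), which on the log2 scale is 1.32 with an SE of 0.19 (edgeR adjusted p = 0.00230). It was 143, 166, 221 and 161 CPM in PiZ libraries 1 to 4 and 376, 416, 507 and 423 CPM in PiZ/Chop-/- libraries 1 to 4, with no overlap (beside 7.88% of all tested genes). The direction is opposite to that of Lcn2 and Apcs. Il1rap, a chain of the interleukin-1 receptor, had 0.80 (adjusted p = 0.376), and 0.50 without PiZ/Chop-/- library 4. Nfkbia, an inhibitor of NF-kB, had 0.40 (adjusted p = 0.406), and 0.20 without PiZ/Chop-/- library 3. The fold changes of the list had a median of 0.0051, with 10 above 0 and 8 below, and the sign of this median turned with library size only (-0.067), limma-voom (-0.082), the replicate block (-0.038) and without PiZ library 1 or 2 or PiZ/Chop-/- library 2 or 3 (-0.16 to -0.053). No counts were found for the cytokines Il6, Tnf and Osm in any library. Il1b, the other cytokine listed, had 42 counts in all 8 libraries together and fell under the count filter. Its highest level was 8.05 CPM, in PiZ/Chop-/- library 2.

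Of 12 receptors and partners of the acute-phase proteins 7 were tested and 0 called by edgeR or limma-voom (2 at an unadjusted edgeR p below 0.05, and Lrp1 called by DESeq2), with 4 above 0 and a median of 0.22, which was 0.33 without PiZ library 1 and 0.14 with library size only. Lrp1, an endocytic receptor that clears hemopexin-heme, had 0.78 with an SE of 0.19 (edgeR adjusted p = 0.0670). It lies on the same chromosome as Ddit3, with 242 kb between them, and it passed without PiZ/Chop-/- library 2 (edgeR adjusted p = 0.0347), with DESeq2 (adjusted p = 0.00916) and with no filter (edgeR adjusted p = 0.0160). Cd36, a scavenger receptor, had -0.61 (adjusted p = 0.207) and Fcgr2b, a receptor for antibody that also binds pentraxins, 0.58 (0.495).

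**Figure D5:**
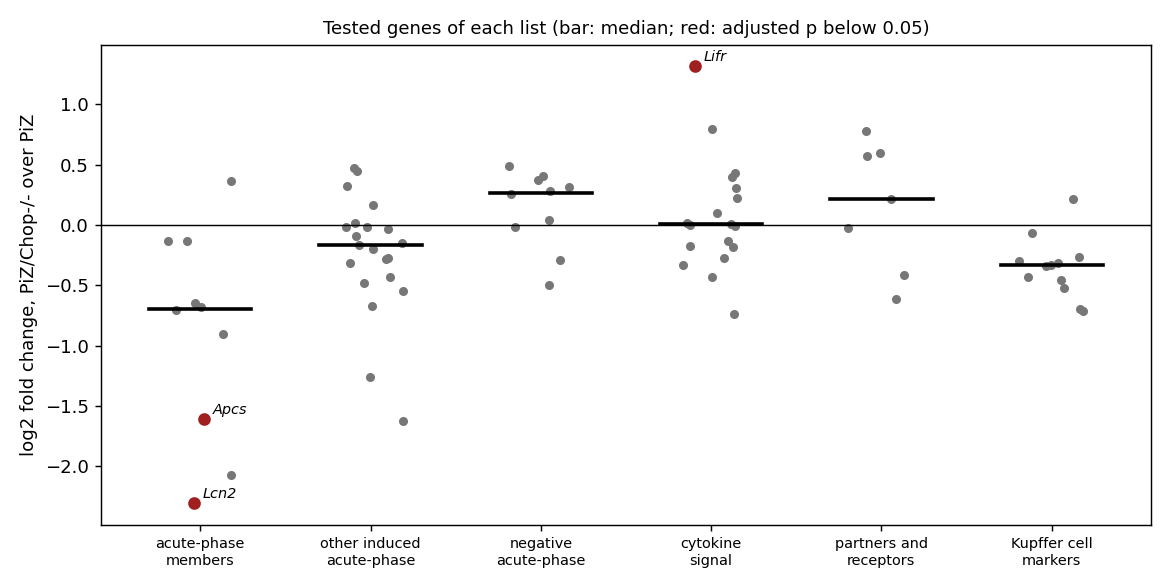
Log2 fold change (PiZ/Chop-/- over PiZ) of the tested genes in the 10 acute-phase members, 4 companion lists and Kupffer cell markers; bars are list medians and red points passed an adjusted p of 0.05 (edgeR). The members' median is -0.69 and the red points are Lcn2, Apcs and Lifr.

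Hepatocyte markers were present in every library, with summed levels of 23069 to 33204 CPM in PiZ and 22660 to 31971 CPM in PiZ/Chop-/-. Kupffer cell and macrophage markers were detected for all 12 listed genes. Their fold changes were below 0 in 11 of 12, with 0 called by edgeR, DESeq2 or limma-voom and 4 at an unadjusted edgeR p below 0.05, against 13.1% over all genes (median -0.33, and -0.53 or -0.18 without PiZ library 3 or 4). Their summed level was 1048 to 1511 CPM in PiZ and 821 to 977 CPM in PiZ/Chop-/-, with no overlap. Much of the sum was Cd5l (means of 520 and 317 CPM) and C1qa (284 and 231 CPM), in each of which the groups overlapped. Among the 12 genes C1qb alone kept the groups apart (114 and 79.0 CPM), beside 7.88% of all tested genes. The part of these cells in the Saa3, Lcn2 and Apcs values was not tested. Stellate cell markers summed to 241 to 359 and 164 to 271 CPM, with 4 of 4 tested below 0 and 0 called by edgeR (1 at an unadjusted p below 0.05, and Col1a1 called by DESeq2). Of 13 neutrophil markers 2 were tested, S100a8 and S100a9, and Elane had no counts. The 13 genes summed to 11.9 to 39.3 CPM in PiZ and 6.04 to 92.5 CPM in PiZ/Chop-/-. PiZ/Chop-/- libraries 1, 3 and 4, at 6.04, 10.9 and 10.2 CPM, lay below every PiZ library, and PiZ/Chop-/- library 2, at 92.5 CPM and with the lowest Lcn2, lay above all. The median of S100a8 and S100a9 was 0.051, and it turned to -1.98 without PiZ/Chop-/- library 2, -0.16 without PiZ library 4, -1.09 with limma-voom, -0.58 with the replicate block and -0.025 with library size only. The part of neutrophils in the Lcn2 values was not tested. Among 5 adipocyte markers Adipoq, Lep and Retn had no counts, and the 5 summed to at most 6.43 CPM.

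For likeness of pattern, the genes with the highest Pearson r of log2 CPM over the 8 libraries were listed for 1 gene of each subfamily, as a description with no test. These values are the extremes of 8669 genes over 8 points and include the difference between the groups. For Lcn2 they were Cyp7a1, the rate-limiting enzyme of bile acid synthesis (r = 0.989), Rbfox2, a splicing factor (0.973), and Slc48a1, a heme transporter (0.960). For Apcs they were Nap1l1, a histone chaperone (0.960), Afp, alpha-fetoprotein (0.954), and Tpd52l1 (0.952). Saa1 was nearest to Bhlhb9 (0.979), Nol11 (0.952) and Casp6 (0.948), Orm1 to Fra10ac1 (0.968), Atxn7l3 (0.953) and Arap1 (0.929), and Hp to Proser2 (0.966), Lhpp (0.965) and Prmt1 (0.965).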

How the data were processed

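Per the labels' protocols, total RNA of liver was made into QuantSeq 3' mRNA libraries and sequenced from one end with 75-base reads. The authors deposited whole-number counts per gene (raw, per the file headers). The submitters' processing notes name STAR, HTSeq and mm10 without versions. For the annotation, strand setting, treatment of reads with several matches and removal of PCR copies, the sources used here give nothing. Symbols and positions came from GENCODE M21 on mm10, which held 52403 of 52550 mouse gene IDs. Groups came from the sample titles.

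Genes passing filterByExpr (minimum count 10) were scaled by TMM and tested with edgeR 4.0.16 (glmQLFit, robust, no covariate) in R 4.3.3, with Benjamini-Hochberg adjustment over all 8669 genes. The SE is the size of the log2 fold change divided by the square root of F. For single genes, the difference in mean log2 CPM (prior count 2) was also set against all 70 assignments of libraries to groups (exact permutation, two-sided). Alternatives used limma 3.58.1, DESeq2 1.42.0, other scalings and filters, a replicate block and libraries left out. The edgeR step was tested on simulated data.

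The 10 genes and the lists were chosen with earlier results of these data known. The text names all 10, every called gene and the 3 of lowest p in each companion list, Crp, Ptx3, Hpx, Cd163, and the 3 nearest genes of 5 index genes. Hamp, Cd5l, C1qa, C1qb, Il1b and the cytokines with no counts were named after their values were seen.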

Additional observations from a re-analysis of the deposited data

How the results depend on the processing

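Apcs stayed called and below 0 in every alternative run, with a log2 fold change of -1.09 without PiZ libraries 1 and 4 together. Lcn2 stayed below 0 in every one and missed the threshold only without PiZ/Chop-/- library 1 or 3, its log2 fold change running from -2.59 to -1.96 with each library left out. The number of the 10 genes called was 1 to 2 with each library left out and 2 in every other alternative. None of the other 8 passed in any of them. Signs turned for Orm1 (-0.26 to 0.023 with each library left out, 0.23 without PiZ libraries 1 and 4), Orm2 (0.039 without PiZ libraries 1 and 4), Hp (-0.35 to 0.11 with each library left out) and Crp (-0.16 to 0.059 with each library left out, 0.10 without PiZ libraries 1 and 4).

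Over all genes, calls numbered 209 with DESeq2 (114 lower, 95 higher) and 357 with no filter on low counts (182 lower, 175 higher). Genes called higher were 19 with library size only and 18 with limma-voom. With each library left out, calls ran from 46 to 169, lower calls from 32 to 102 and higher calls from 12 to 67. The cause of these shifts was not tested. The difference in Saa2 share was -20.2 to -16.3 points with each library left out. It was -17.5 points without PiZ libraries 1 and 4, where the exact permutation p of 0.0667 is the smallest possible.

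For libraries with the same replicate number, deviations from the group means correlated at 0.046, -0.051, 0.0061 and 0.049. For libraries with different numbers they correlated at -0.13 to 0.12. With 4 libraries per group, such values cannot exclude that libraries of a number were handled together. With the replicate number as a block, 76 genes were called (48 lower, 28 higher), among them Lcn2 (-2.29, adjusted p = 0.0465, edgeR) and Apcs (-1.55, adjusted p = 0.00708). The blocked difference in Saa2 share was -18.0 points, with an exact sign-flip permutation p of 0.125, the smallest that 4 pairs allow. Depth limits Orm2 and Saa3, with 129 and 368 counts in all.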
